A study of Mus musculus with 2 samples.

Results

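Cxcl9, Cxcl10, Cxcl16 and Ccl5, which encode chemokines that attract T cells and NK cells, and Cxcr3 and Cxcr6, which encode receptors for them, were followed across the immune cells of TSA tumors. These 6 genes were taken by symbol out of 27998 genes in the count tables. The ligands were described across myeloid cells and the receptors across T and NK cells, and Ccl5 across both, because lymphocytes also make it. TSA is an established mouse mammary adenocarcinoma cell line, and the cells were injected subcutaneously into mice of the Balb/c strain, given as female and 6 to 15 weeks old in the methods of the study. The untreated group received no agent, whereas the NAM group drank water with 0.5% NAM (nicotinamide, a form of vitamin B3) for 10 days, starting once tumors measured 0.25 cm2. Tumors of 3 mice were pooled per group, CD45+ (leukocyte) cells were enriched on magnetic beads, and each pool gave 1 single-cell RNA library.

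Chemokines are small secreted proteins that direct the migration of leukocytes bearing the matching receptor. CXCL9 and CXCL10 are induced by interferons and bind CXCR3, which activated T cells, regulatory T cells and NK cells carry. CXCL16 is made as a transmembrane protein, is released by proteases and binds CXCR6, a receptor of tissue-resident and effector T cells. CCL5 is a product of effector lymphocytes, macrophages and dendritic cells.

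The untreated library held 2922 cells with a median of 9056 UMIs (unique molecular identifiers, each standing for 1 captured RNA molecule) and the NAM library 3276 cells with a median of 9128 UMIs. Cells were assigned to 15 gates by the UMIs of marker genes, none of which is among the 6 genes, and 5780 of 6198 cells fell in a gate. In each gate but 1, all markers that the gate itself did not use were higher inside it than outside. The exception was the macrophage gate defined by Ly6c2 and Plac8, where this held for 6 of 9 markers. For CD8 T cells and T cells of no other gate these markers were general T-cell genes. For the Vcam1, Ly6c2 and remaining macrophage gates they were general macrophage genes. In these gates the check bears on the lineage and not on the subset. The Mmp12 and proliferating gates had only 2 such markers each. Levels are given as UMIs of the gene in every 1000000 UMIs summed over the cells of a gate (CPM), and differences as the log2 ratio of NAM over untreated, with exact 95% intervals for counting error alone. Each group is 1 library, so there was no replicate check and no test, cells are not replicates, and NAM cannot be told apart from any other difference between the 2 pools or their preparation. In the following, "higher" and "lower" describe these 2 libraries and are used between them where the interval leaves out 0. The libraries shared 11 barcodes. Summed markers of red blood cells were at 20.3 CPM in the untreated and 723 CPM in the NAM library, where 8 cells carried 5 or more UMIs of them. Their part in the results was not tested.

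All 6 genes are protein-coding. In the GENCODE vM21 annotation of GRCm38 (mm10), Cxcl9 lies at chr5:92321347-92328079 and Cxcl10 at chr5:92346638-92348889, both on the minus strand and 18558 bases apart. Cxcl16 lies at chr11:70453983-70459984 and Ccl5 at chr11:83525778-83530518, both on the minus strand. Cxcr3 lies at chrX:101731535-101734269 on the minus strand and Cxcr6 at chr9:123806475-123811760 on the plus strand. RefSeq promoters (GRCm38.p6) were matched for 4 of 6 genes. The 250 bases before the start of Cxcl9 (chr5:92328080-92328329) and Cxcl10 (chr5:92348890-92349139) are shown 5′ to 3′ on the minus strand, because these neighbouring genes were both higher in macrophages of the NAM library but differed in which subset had the highest level. Capitals mark matches on either strand to GAS (TTCNNNGAA, the element named for activation by interferon gamma), ISRE (GAAA, then 2 bases of any kind, then GAAA, the site of interferon-activated factors) or the NF-kB consensus.
Cxcl9: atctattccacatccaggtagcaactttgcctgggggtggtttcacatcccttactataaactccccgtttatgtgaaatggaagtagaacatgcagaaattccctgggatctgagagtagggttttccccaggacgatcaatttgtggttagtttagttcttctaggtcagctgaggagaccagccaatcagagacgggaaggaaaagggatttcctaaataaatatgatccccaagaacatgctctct
Cxcl10: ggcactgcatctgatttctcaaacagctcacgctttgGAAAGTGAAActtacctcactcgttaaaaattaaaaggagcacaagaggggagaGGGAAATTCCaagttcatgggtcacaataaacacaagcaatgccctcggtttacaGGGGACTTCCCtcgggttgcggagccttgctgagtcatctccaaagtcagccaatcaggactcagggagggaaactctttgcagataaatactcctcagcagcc
Cxcl10 held 1 ISRE match, from 213 to 204 bases before the start, and 4 NF-kB matches counted over both strands. Of these, 3 overlap one another between 104 and 94 bases before the start, where the bases from 103 to 94 were counted once on each strand. None of the 3 motifs was matched in the Cxcl9 window. Of 32851 promoter windows of this length, 7.02% held a GAS match, 2.98% an ISRE match and 7.25% an NF-kB match. A match of letters is a description and not a measured binding site, and the reference strain is C57BL/6J.

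Cxcl9 was carried mainly by macrophages (cells with 20 or more UMIs of the complement genes C1qa, C1qb and C1qc), and most by those that express Vcam1, an adhesion molecule, and Dnase1l3. Macrophages held 85.9% of all Cxcl9 UMIs of the untreated library and 89.2% of the NAM library. Vcam1 macrophages alone held 33.8% and 34.3%, with 16.2% and 14.7% of all UMIs. In Vcam1 macrophages the level of Cxcl9 was 443 CPM untreated and 700 CPM with NAM, first among the 15 gates in both libraries. Macrophages with the monocyte genes Ly6c2 and Plac8 came second, at 355 and 612 CPM, and their intervals overlapped neither neighbour in the order. Myeloid cells with Ctsk and Acp5, genes of osteoclasts, were at 22.0 CPM in both libraries, so that Vcam1 macrophages exceeded them 20.2-fold and 31.9-fold. T cells, which should not make Cxcl9, had 7.63 and 13.8 CPM, taken here as the background of free RNA.

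Across all macrophages Cxcl9 was at 260 CPM (5322 UMIs, 1971 cells) in the untreated and 377 CPM (8586 UMIs, 2186 cells) in the NAM library, a log2 ratio of 0.54 (0.49 to 0.59). More macrophages carried the transcript in the NAM library, while those that did carried about as many molecules. After every cell was thinned to 3000 UMIs, 25.8% of untreated and 38.7% of NAM macrophages had a Cxcl9 UMI (39.4% and 55.1% without thinning), and the mean per positive cell was 3.04 and 2.99 UMIs. In T cells the thinned share was 0% (0 of 201 cells) and 3.07%. Median depth was 9774 and 9805 UMIs in macrophages and 4504 and 4328 in T cells.

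The Cxcl9 ratio was not uniform over the subsets. It was 0.79 (0.62 to 0.95) in Ly6c2 macrophages, 0.74 (0.53 to 0.95) in macrophages with 8 or more UMIs of the interferon-induced genes Ifit1, Ifit2, Ifit3 and Rsad2 (interferon-high), 0.72 (0.62 to 0.82) in macrophages of no other gate and 0.66 (0.58 to 0.74) in Vcam1 macrophages. Proliferating macrophages had a smaller ratio of 0.18 (0.05 to 0.32). Macrophages of the gate that has Mmp12, which encodes a matrix protease, among its markers (Mmp12 macrophages) had 148 and 165 CPM and a ratio of 0.16 (-0.03 to 0.34). In that gate the interval left out 0 once the highest cell of each library was dropped (0.34, 0.15 to 0.53), a check added after the data were seen. Conventional type 1 dendritic cells (cDC1, defined by Xcr1 and Clec9a) had 193 and 386 CPM, a ratio of 1.00 (0.64 to 1.37) over only 28 and 33 cells, and with gates drawn on thinned cells the interval included 0 (0.30, -0.86 to 1.56).

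Monocytes were lower in level but not in share. They had 288 CPM of Cxcl9 untreated and 233 CPM with NAM, a log2 ratio of -0.30 (-0.50 to -0.11), whereas the thinned share of cells with a UMI was 19.5% and 24.8%. The untreated level rested on few cells: 6 of 256 monocytes with 20 or more UMIs held 41.8% of the gate's Cxcl9, against 3 of 290 holding 15.8% in the NAM library. Without the 5 highest cells of each library the ratio was -0.05 (-0.29 to 0.18).

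**Figure D1:**
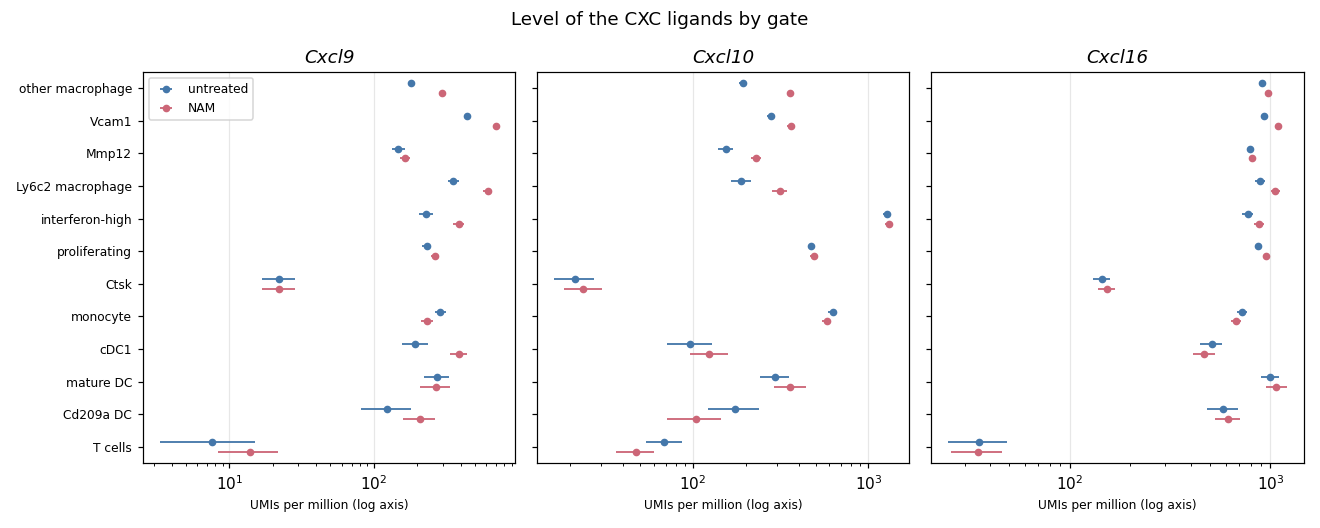
Level of Cxcl9, Cxcl10 and Cxcl16 in CPM (log axis) in each myeloid gate and in T cells, for the untreated and the NAM library; bars are exact Poisson intervals of the count. Vcam1 macrophages are highest for Cxcl9, interferon-high macrophages for Cxcl10, and Ctsk cells and T cells sit far below the other gates for Cxcl9 and Cxcl16.

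Cxcl10 had a different distribution, led by interferon-high macrophages. These had 1270 CPM in the untreated and 1307 CPM in the NAM library, 4.55-fold and 3.60-fold above Vcam1 macrophages, and 69.4% and 69.6% of thinned cells had a UMI. Monocytes came next at 627 and 579 CPM, followed by proliferating macrophages at 473 and 487 CPM. Interferon-high macrophages held 19.5% of the library's Cxcl10 UMIs untreated and 15.5% with NAM, from 4.42% and 4.07% of all UMIs. They led in level and not in share, since proliferating macrophages held 20.3% and 16.0%, and macrophages of no other gate 15.6% and 25.9%. The transcript was uneven among macrophages: 4.87% of untreated and 6.31% of NAM macrophages had 20 or more UMIs and together held 53.3% and 57.9% of macrophage Cxcl10. T cells had 68.6 and 47.2 CPM of Cxcl10 and a UMI in 6.47% and 9.96% of thinned cells, which serves as its background, and a single untreated cell held 39 of 72 T-cell UMIs.

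Cxcl10 was higher in NAM macrophages as a whole, at 324 CPM (6647 UMIs) untreated and 409 CPM (9303 UMIs) with NAM, a log2 ratio of 0.33 (0.29 to 0.38). The gates already richest in it had ratios near 0: 0.04 (-0.06 to 0.14) in interferon-high macrophages, 0.04 (-0.05 to 0.14) in proliferating macrophages and -0.12 (-0.24 to 0.01) in monocytes. Macrophages of no other gate had the largest ratio, 0.87 (0.78 to 0.97), from 194 to 355 CPM. Vcam1 macrophages had 0.38 (0.27 to 0.48), from 279 to 363 CPM. For Mmp12 macrophages (0.57, 0.40 to 0.74) and Ly6c2 macrophages (0.73, 0.50 to 0.97) the values depended on the gate, since with gates drawn on thinned cells the ratios were -0.09 (-0.29 to 0.11) and -0.05 (-0.43 to 0.33). In monocytes, leaving out the 5 highest cells of each library gave 0.28 (0.12 to 0.44).

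Over all macrophages pooled, Cxcl10 was found more often in cells with Cxcl9 than in cells without it. Of thinned macrophages with a Cxcl9 UMI, 36.8% also had Cxcl10 in the untreated library, against 21.7% of those without Cxcl9. In the NAM library these shares were 38.0% and 25.7%. Within single gates the intervals of the shares were apart in both libraries only in Vcam1 macrophages (37.9% and 18.9% untreated, 38.6% and 21.8% with NAM). In Mmp12 macrophages they were apart in the untreated library only, and in the other macrophage gates they overlapped. Interferon-high macrophages had 70.4% and 69.0% in the untreated library, so the pooled values mix gates with different levels of both genes. Across the 30 gate and library points, which share libraries and depth and include T-cell and NK gates, the levels had a Pearson r of 0.79. The genes whose profile over these points was most like that of Cxcl9, out of 7380 genes with enough UMIs, were Aif1, H2-DMa and Pld4 (r from 0.95 to 0.97). For Cxcl10 they were Fpr2, Il18bp and Gbp2b (r from 0.83 to 0.84).

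**Figure D2:**
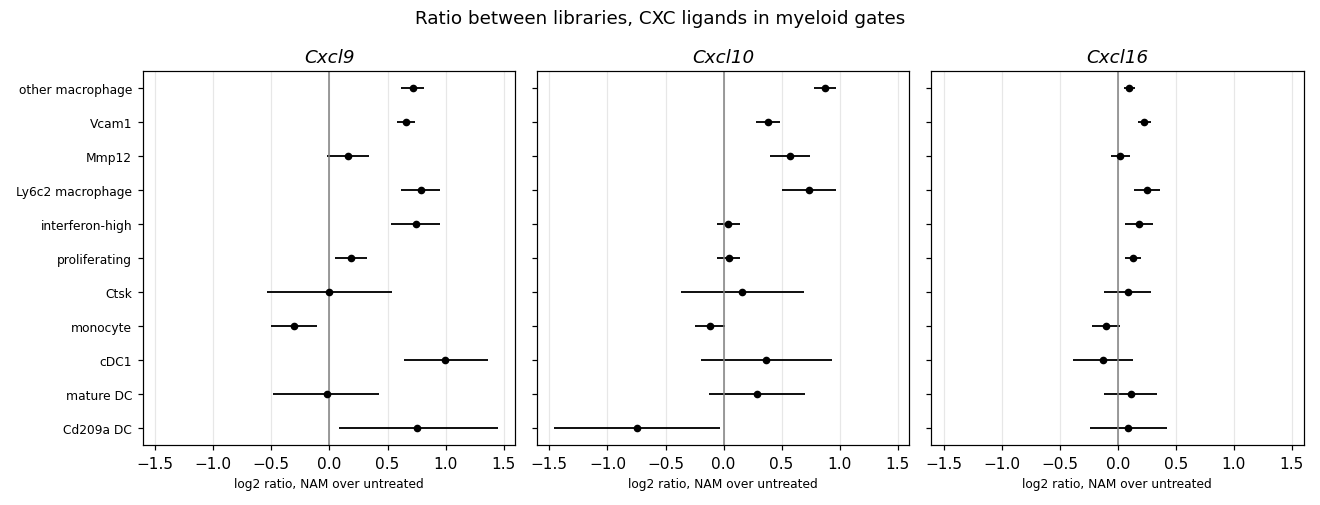
Log2 ratio of NAM over untreated for Cxcl9, Cxcl10 and Cxcl16 in each myeloid gate, on 1 common axis; bars are exact 95% intervals for counting error. Cxcl9 is above 0 in 5 of 6 macrophage gates with its interval and below 0 in monocytes, Cxcl10 is near 0 in interferon-high and proliferating macrophages, and Cxcl16 stays close to 0 throughout.

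Cxcl16 was broadly present in myeloid cells, in contrast to both interferon-induced ligands. After thinning, 88.3% of untreated and 90.0% of NAM macrophages had a UMI, against 8.46% and 8.05% of T cells. The 6 macrophage gates ranged only from 772 to 932 CPM in the untreated and from 806 to 1092 CPM in the NAM library. Mature dendritic cells (defined by Ccr7 and Fscn1) were at 991 and 1069 CPM. Monocytes had 725 and 676 CPM and cDC1 509 and 467 CPM. Ctsk cells were again low, at 145 and 153 CPM, 6.08-fold and 6.28-fold below macrophages.

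The Cxcl16 difference between libraries was small. Macrophages had 880 CPM (18028 UMIs) untreated and 964 CPM (21954 UMIs) with NAM, a log2 ratio of 0.13 (0.10 to 0.16). The ratio reached 0.25 (0.14 to 0.37) in Ly6c2 and 0.23 (0.17 to 0.29) in Vcam1 macrophages and was 0.02 (-0.06 to 0.10) in Mmp12 macrophages. No dendritic cell, monocyte or Ctsk gate had an interval that left out 0. The closest profiles were those of Unc93b1, Ctsh and Pld4 (r of 0.96 each), and the Cxcl16 profile had an r of 0.94 with that of Cxcl9. These values run over all gates, including T-cell and NK gates low in both ligands. They do not show a common order among the myeloid gates.

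The level of Ccl5 was highest in mature dendritic cells, followed in both libraries by CD8 T cells, T cells that were neither CD8 nor Treg-like, NK cells and monocytes. Mature dendritic cells were first in both libraries, with 4829 CPM untreated (1794 UMIs, 36 cells) and 9419 CPM with NAM (2466 UMIs, 30 cells), a log2 ratio of 0.96 (0.88 to 1.05). They made up 1.27% and 0.816% of all UMIs but held 16.2% of Ccl5 UMIs in each library. The 5 highest cells held 1391 of 1794 UMIs untreated and 1531 of 2466 with NAM, and without them the ratio was 1.79, with an interval above 0. Of these cells, 12 of 36 in the untreated and 20 of 30 in the NAM library had 20 or more Ccl5 UMIs. Depth differed in this gate, with a median of 9903 UMIs untreated and 6924 with NAM, and its part was not tested. At 3000 UMIs per cell, 58.3% and 70.0% of cells had a Ccl5 UMI.

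CD8 T cells (T cells with 2 or more UMIs of Cd8a and Cd8b1) followed with 3530 and 3733 CPM of Ccl5, a ratio of 0.08 (-0.01 to 0.17). Thinning every cell to 3000 UMIs moved that ratio to 0.28 (0.18 to 0.39). Treg-like cells were T cells below that minimum with 2 or more UMIs summed over Foxp3, Ikzf2 and Il2ra, so that a cell need not carry each gene or Foxp3. They had 690 and 798 CPM, 5.11-fold and 4.68-fold less than CD8 T cells. T cells in neither gate had 2205 and 3538 CPM, a ratio of 0.68 (0.47 to 0.90), which without the 5 highest cells of each library was 0.34 (-0.07 to 0.75). NK cells had 1351 CPM (583 UMIs, 70 cells) and 2204 CPM (413 UMIs, 39 cells), a ratio of 0.71 (0.52 to 0.89), and their thinned share with a UMI was 47.1% and 71.8%. Over all T cells the level was 2180 and 2668 CPM (0.29, 0.22 to 0.37). At a common make-up of the T-cell gates the ratio was 0.17, since CD8 T cells were 94 of 201 T cells untreated and 145 of 261 with NAM.

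In macrophages Ccl5 was at 220 CPM untreated and 264 CPM with NAM, a ratio of 0.26 (0.21 to 0.32), but the thinned share of cells with a UMI was 20.3% and 21.4%. Much of it lay in a few cells: 52 of 1971 untreated and 77 of 2186 NAM macrophages had 20 or more UMIs and held 53.2% and 64.1% of macrophage Ccl5. A UMI of a T-cell or NK gene was present in 7.69% and 3.90% of these high cells and in 8.55% and 9.48% of the other macrophages. A UMI of Ccr7 or Fscn1, the markers of mature dendritic cells, was present in 5.77% and 11.7% of the high cells and in 7.56% and 6.26% of the others. Leaving out all macrophages with a UMI of a T-cell, NK or mature dendritic cell marker, a check added after the data were seen, gave a ratio of 0.24 (0.18 to 0.31). The gates diverged. Ly6c2 macrophages had 435 and 894 CPM (1.04, 0.89 to 1.18), interferon-high macrophages 406 and 635 CPM (0.65, 0.49 to 0.81) and monocytes 777 and 1139 CPM (0.55, 0.45 to 0.66). Mmp12 macrophages were lower in the NAM library, 232 against 162 CPM (-0.52, -0.68 to -0.36), but without the 5 highest cells of each library the ratio was 0.15 (-0.07 to 0.38). Dendritic cells with Cd209a had 201 and 100 CPM from 44 and 32 UMIs (-1.0, -1.70 to -0.31), and without the 5 highest cells of each library the interval included 0. The genes closest to Ccl5 in profile were Epsti1, Rnf115 and Ostf1 (r from 0.85 to 0.87).

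**Figure D3:**
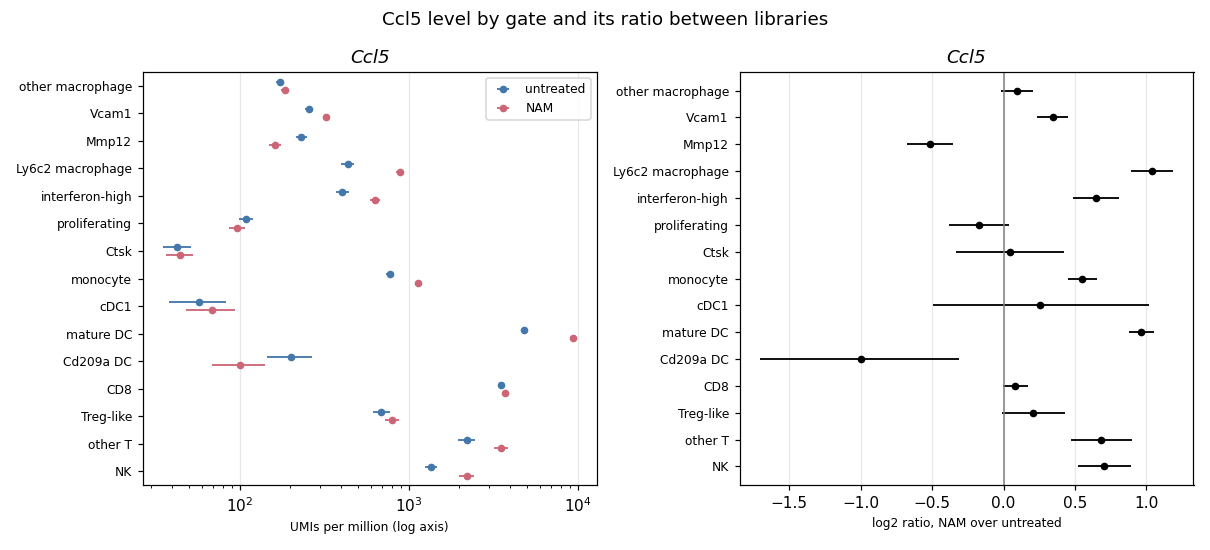
Left, level of Ccl5 in CPM (log axis) in each gate of the untreated and the NAM library, with exact Poisson intervals; right, log2 ratio of NAM over untreated with exact 95% intervals for counting error. Mature dendritic cells and CD8 T cells are highest, and the ratios lie on both sides of 0.

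Cxcr3, the receptor for CXCL9 and CXCL10, was a sparse transcript of T cells. Treg-like cells had the highest value in both libraries, but their interval overlapped that of the next gate, T cells that were neither CD8 nor Treg-like, which had 79.8 CPM (39.8 to 143) untreated and 86.5 CPM (43.2 to 155) with NAM from 11 UMIs each. Its background in macrophages was 3.47 CPM untreated and 3.91 CPM with NAM, with a UMI in 1.17% and 1.24% of thinned cells, and all T cells had 75.3 and 90.8 CPM, 21.7-fold and 23.2-fold above that background. By share, T cells held 41.1% of Cxcr3 UMIs untreated and 43.1% with NAM, and macrophages 37.0% and 30.7%, with 70.2% and 71.0% of all UMIs. Whether the macrophage UMIs were free RNA was not tested. Between libraries the T-cell ratio was 0.27 (-0.15 to 0.70). Treg-like cells had 92.1 CPM (40 UMIs, 79 cells) untreated and 169 CPM (83 UMIs, 85 cells) with NAM, a log2 ratio of 0.88 (0.32 to 1.46). The thinned share of Treg-like cells with a UMI was 20.3% and 35.3% (32.9% and 44.7% without thinning). CD8 T cells had 58.8 CPM (28 UMIs) and 40.9 CPM (31 UMIs), a ratio of -0.52 (-1.31 to 0.27). Treg-like cells thus exceeded CD8 T cells 1.57-fold in the untreated library, where the log2 interval of -0.08 to 1.40 included 0, and 4.13-fold in the NAM library (log2 interval 1.44 to 2.69). NK cells had 32.4 CPM from 14 UMIs and 69.4 CPM from 13 UMIs (1.10, -0.11 to 2.29), which is not a difference detectable at this depth.

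Outside the lymphocytes, cDC1 also carried Cxcr3 above the macrophage background. They had 32.8 CPM (16 UMIs) untreated and 77.8 CPM (42 UMIs) with NAM, 9.47-fold and 19.9-fold above macrophages. A UMI was found in 9 of 28 and 16 of 33 cells, of which 0 and 2 also had a UMI of a T-cell or NK gene. The ratio between libraries was 1.25 (0.38 to 2.18), but at 3000 UMIs per cell its interval included 0 (1.64, -0.28 to 4.12). Mature dendritic cells had 1 UMI in each library and Cd209a dendritic cells 0. The profiles closest to that of Cxcr3 were those of Pla2g16, Ctla4, which encodes an inhibitory receptor of regulatory T cells, and Prrc2b (r from 0.89 to 0.90).

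Cxcr6, the receptor for CXCL16, was highest in CD8 T cells of both libraries. CD8 T cells had 726 CPM (346 UMIs, 94 cells) untreated and 770 CPM (584 UMIs, 145 cells) with NAM, first among the gates, and the thinned share of cells with a UMI was 63.8% and 72.4%. T cells that were neither CD8 nor Treg-like came second with 450 and 354 CPM, and CD8 T cells exceeded them 1.61-fold and 2.18-fold. Treg-like cells had 159 and 136 CPM, so CD8 T cells exceeded them 4.57-fold and 5.65-fold. NK cells had 102 and 107 CPM. Macrophages, the background, had 0.586 and 1.23 CPM and a UMI in 0.304% and 0.366% of thinned cells. In no T-cell or NK gate did the interval of the Cxcr6 ratio leave out 0: it was 0.09 (-0.11 to 0.28) in CD8 T cells, -0.22 (-0.73 to 0.29) in Treg-like cells and 0.15 (-0.02 to 0.32) in all T cells. The share of the library's Cxcr6 UMIs held by CD8 T cells was 60.1% untreated and 74.9% with NAM, beside 1.63% and 2.36% of all UMIs. The closest profiles were those of Thy1, Icos and Skap1 (r of 0.96 each), genes of T cells.

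**Figure D4:**
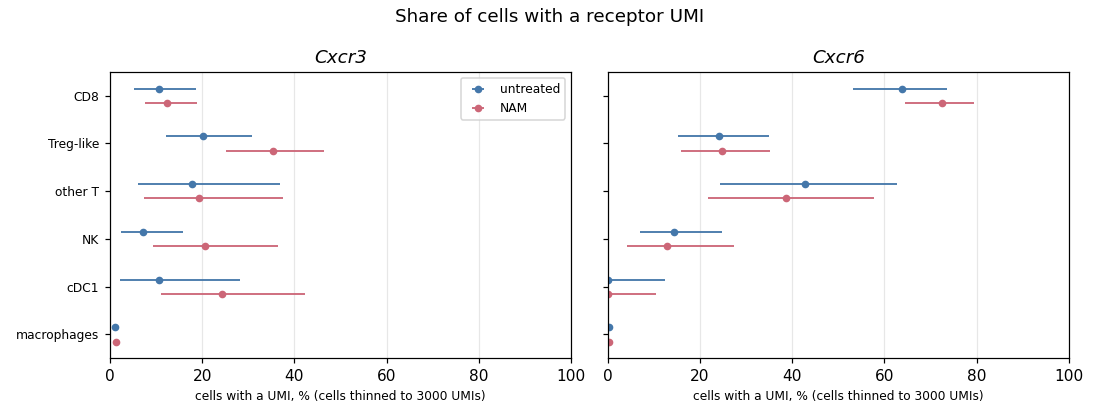
Share of cells (percent, cells thinned to 3000 UMIs) with a Cxcr3 or Cxcr6 UMI in T-cell and NK gates, cDC1 and macrophages, for both libraries; bars are exact Clopper-Pearson intervals. CD8 T cells have the highest share for Cxcr6 and macrophages lie near 0 for both genes, whereas for Cxcr3 the interval of Treg-like cells overlaps that of other T cells in both libraries.

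Within CD8 T cells, 4 of 10 thinned cells with a Cxcr3 UMI also had Cxcr6 in the untreated library and 8 of 18 in the NAM library. Of cells without Cxcr3, 66.7% and 76.4% had Cxcr6, and the intervals of these shares overlapped those of the cells with Cxcr3 in both libraries. CD8 T cells were also divided by a UMI of Pdcd1, which encodes the inhibitory receptor PD-1. This division was chosen after values had been seen, is a description, and belongs to 27 such comparisons made per library. In CD8 T cells with a Pdcd1 UMI, Cxcr3 was at 14.5 CPM (5 UMIs) untreated and 27.1 CPM (16 UMIs) with NAM, against 175 CPM (23 UMIs) and 89.5 CPM (15 UMIs) without one. Cxcr6 was at 931 and 869 CPM in cells with a Pdcd1 UMI against 190 and 424 CPM without. Cxcr6 was present in 72.4% of Ccl5-positive thinned CD8 T cells and 50% of Ccl5-negative ones in the untreated library, and in 83.9% and 55.2% in the NAM library. The intervals of these shares overlapped in the untreated library. In Treg-like cells the Cxcr3 intervals for Pdcd1 included 0 in both libraries.

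The 6 genes were then read against all genes with the call rule used for the lists, a ratio of 1.5-fold or more with an interval that leaves out 0, over genes with 50 or more UMIs. In macrophages 0 of 5 members that passed this minimum were called, while 1.35% of 10742 genes were called higher and 4.59% lower, and the median ratio was 0.26 for the members and -0.03 for all genes. In T cells 0 of 5 were called (2.91% of genes higher, 5.64% lower).

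Among macrophage gates, Ly6c2 macrophages had Cxcl9, Cxcl10 and Ccl5 called higher out of 4 members (2.88% of genes higher, 4.38% lower), of which the Cxcl10 call was lost with gates drawn on thinned cells. Interferon-high macrophages had Cxcl9 and Ccl5 called higher out of 4 (3.35% higher, 4.44% lower), and macrophages of no other gate had Cxcl9 and Cxcl10 called higher out of 5 (1.64% higher, 5.24% lower). Vcam1 macrophages had Cxcl9 called higher out of 5 (1.63% higher, 4.98% lower). The macrophage gates without a called member were Mmp12 (1.82% higher, 4.38% lower) and proliferating (1.53% higher, 3.95% lower), like Ctsk cells (1.4% higher, 4.2% lower) and monocytes (3.41% higher, 6.41% lower).

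Mature dendritic cells had Ccl5 called higher out of 4 members (5.93% of genes higher, 7.13% lower), and cDC1 had Cxcl9 and Cxcr3 called higher out of 5 (8.44% higher, 7.09% lower), the first lost with gates drawn on thinned cells and the other at 3000 UMIs per cell. Cd209a dendritic cells had Cxcl9 called higher and Cxcl10 and Ccl5 lower out of 4 (5.6% higher, 10.2% lower), but with gates drawn on thinned cells the Cxcl9 ratio was -0.20 (-1.55 to 1.05) and the Cxcl10 ratio 1.57 (-0.17 to 3.49). In this gate 1 cell of each library held 23 of 38 and 20 of 33 Cxcl10 UMIs, and the Ccl5 interval included 0 without the 5 highest cells of each library. NK cells had Ccl5 called higher out of 2 (3.55% higher, 4.72% lower), and so did T cells that were neither CD8 nor Treg-like (7.77% higher, 6.24% lower), where the call was lost without the 5 highest cells of each library, which held 210 of 304 and 337 of 450 UMIs. CD8 T cells had 0 of 3 called (3.65% higher, 3.95% lower). Treg-like cells had Cxcr3 called higher and Cxcl10 lower out of 4 (4.32% higher, 5.14% lower), and a single untreated cell held 39 of 58 of these Cxcl10 UMIs.

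Other genes of the pathway were taken from 6 lists. The list of inducers of Cxcl9 and Cxcl10, which also holds the inhibitor Socs1, had 18 measured genes in macrophages. Of these 3 were called higher, Socs1 among them, and 2 lower, beside 1.35% and 4.59% of all genes there. For the list counts in T cells that follow these shares were 2.91% and 5.64%. Irf1, a transcription factor induced by interferon gamma, was at 76.4 and 133 CPM (0.80, 0.71 to 0.89), and Socs1, a feedback inhibitor of interferon signalling, at 38.5 and 69.5 CPM (0.85, 0.73 to 0.98). Ifnb1, which encodes interferon beta, had 4 UMIs untreated and 76 with NAM. Jak2, a kinase of the interferon gamma receptor, was lower at 19.0 and 10.9 CPM (-0.81, -1.04 to -0.57), and Nfkb1, an NF-kB subunit, at 127 and 79.6 CPM (-0.67, -0.76 to -0.58). The list's median ratio was 0.04. Irf1 was also called higher and Nfkb1 lower in monocytes, T cells and CD8 T cells.

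Of 9 measured other chemokines that attract T cells, 0 were called higher and 2 lower in macrophages, Ccl17 and Ccl22, both ligands of CCR4 and both under 5 CPM there. In the same cells Ccr7, a marker of the mature dendritic cell gate, was lower (92 and 54 UMIs; -0.92, -1.43 to -0.42) and the cDC1 marker Xcr1 higher (15 and 36 UMIs; 1.11, 0.21 to 2.09), and their part in the chemokine values was not tested. In mature dendritic cells 4 of 4 past the minimum were called higher, beside 5.93% of all genes higher and 7.13% lower, and with a minimum of 20 UMIs Cxcl13 was called lower from 47 and 2 UMIs. Ccl22 was at 455 and 1020 CPM (1.16, 0.88 to 1.45) and Ccl17 at 35.0 and 336 CPM (3.26, 2.42 to 4.23). Ccl4, a chemokine of macrophages and activated lymphocytes, was at 363 and 718 CPM (0.98, 0.66 to 1.31), and Ccl8 at 409 and 760 CPM (0.89, 0.58 to 1.21). Macrophages had 1750 and 1751 CPM of Ccl4 and 5866 and 4970 CPM of Ccl8, and the part of free RNA in the mature dendritic cell values was not tested. In CD8 T cells Xcl1, the ligand of the cDC1 receptor XCR1, was higher at 239 and 865 CPM (1.85, 1.57 to 2.15), whereas in NK cells it was lower at 2243 and 1393 CPM (-0.69, -0.89 to -0.49). In CD8 T cells Ccl3 was lower at 814 and 179 CPM (-2.18, -2.47 to -1.90).

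Of 5 measured genes for shedding, cleavage and scavenging of the ligands, 0 were called higher and 1 lower in macrophages, Sdc4, a cell-surface proteoglycan, at 548 and 298 CPM (-0.88, -0.92 to -0.83). Of 12 genes of chemokine receptor signalling 0 were called in macrophages, and of 11 measured in T cells 0 were called higher and 2 lower. These were Gnai2, the G-protein subunit that chemokine receptors couple to, at 633 and 411 CPM (-0.62, -0.79 to -0.46), and Adrbk1, a receptor kinase, at 84.9 and 46.5 CPM (-0.87, -1.35 to -0.39). Of 6 measured genes of residence and recirculation in T cells, 0 were called higher and 1 lower, Klf2, a factor that drives recirculation receptors, at 436 and 266 CPM (-0.71, -0.91 to -0.51). Of 6 measured other chemokine and homing receptors in T cells, 1 was called higher, Cx3cr1, from 21 and 50 UMIs, and 0 lower.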

How the data were processed

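Whole-number UMI counts per gene and cell were deposited by the authors for 2 libraries of CD45+ cells from TSA tumors. Per the submitters' processing notes and the methods of the study, they were made with Cell Ranger from 10x Genomics 3′ libraries aligned to mm10, and barcodes below 1000 genes or 3000 UMIs or above 10% mitochondrial UMIs had been removed. The annotation version is not given in the sources used here. The deposited counts are raw, and normalized values of the study were not used here.

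Cells were gated by marker UMIs, and some marker genes and comparisons are not reported here. The minimums of the gates were set on the marker genes alone after the files had been seen, and the 6 genes and the lists were chosen with earlier results of these data known. Cells with the lymphoid minimum and 4 or more UMIs of a list of myeloid marker genes (18 untreated, 37 NAM) were left out as mixed droplets; no doublet caller was run. UMIs were summed per gate and library, with exact Poisson intervals of CPM, exact conditional binomial intervals of ratios and Clopper-Pearson intervals of shares (95%). For shares, each cell was thinned at random without replacement to 3000 UMIs. Named genes were the members, the list genes past the call rule and the 3 genes per member with the highest Pearson r over 30 gate and library points, among 7380 genes with 500 or more UMIs. Pathway lists held 81 distinct genes and the marker lists 126 entries, of which 4 and 3 had no match by symbol. The interval code was tested on simulated counts. Python 3.11.15, NumPy 2.4.6, SciPy 1.17.1 and matplotlib 3.10.9 were used. Alternatives covered scaling, thinning, averaging over cells, stricter gates, leaving out high or deep cells, subtraction of free RNA and a common make-up of subsets. Coordinates came from GENCODE vM21.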

Additional observations from a re-analysis of the deposited data

Results flagged for a closer look

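Myeloid gates with 50 or more UMIs of a ligand were listed where its ratio had the opposite sign to that of macrophages as a whole and its interval left out 0. Gates of opposite sign whose interval included 0 were not listed, and the differences between gates were not tested. Cxcl9 had a log2 ratio of -0.30 in monocytes, where macrophages had 0.54, and -0.05 (-0.29 to 0.18) once the 5 top cells per library were left out. Cxcl10 had -0.74 in Cd209a dendritic cells, from 38 and 33 UMIs, where macrophages had 0.33, but 1 cell held 23 and 20 of these UMIs, and with gates drawn on thinned cells the ratio was 1.57 (-0.17 to 3.49). Ccl5 had -0.52 in Mmp12 macrophages and -1.0 in Cd209a dendritic cells, where macrophages had 0.26. With the 5 top cells per library left out these were 0.15 (-0.07 to 0.38) and -1.0 (-2.42 to 0.37). Cxcr3 in cDC1, outside the T and NK gates, was at 32.8 CPM untreated and 77.8 CPM with NAM, above its level of 3.47 and 3.91 CPM in macrophages.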

How the results depend on the processing

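No paired analysis was possible because each group is 1 library. Alternative values with an interval were compared by sign and by whether the interval left out 0, not by size. A sign change counted as kept where both intervals included 0. Values without an interval were kept if they lay inside the reported interval. Otherwise they moved, or turned if the sign changed and the reported interval left out 0. Of 69 alternative values for the 7 log2 ratios of whole macrophages and T cells, 61 were kept in this sense, in 3 the interval came to leave out 0, 5 moved and none turned. At a common make-up of subsets the macrophage ratios were 0.59 for Cxcl9 and 0.39 for Cxcl10 and the T-cell ratio of Ccl5 0.17, while its mean over cells gave 0.43. Subtracting free RNA moved Cxcl10 in macrophages to 0.55, with 39 of 72 untreated T-cell UMIs of the reference in 1 cell. For Cxcr6 in T cells the interval left out 0 without the 5 highest cells (0.25), without the highest cell (0.18) and without the 2.5% of cells with most UMIs (0.18) of each library. With a minimum of 200 UMIs, 2 list entries were called higher and 5 lower in macrophages (4 and 8 at 50, with S1pr1 counted in each of 2 lists), and 4 lower in T cells (7 at 50). Of 504 values for the 57 ratios in single gates, 435 were kept in the same sense, whatever their size where they had an interval. In 16 the interval came to include 0, in 27 to leave it out, 17 moved and 9 turned in sign. With gates drawn on thinned cells these were Cxcl9 (-0.20) and Cxcl10 (1.57) in Cd209a dendritic cells, Cxcl10 in Mmp12 (-0.093) and Ly6c2 (-0.054) macrophages and Cxcl16 in interferon-high macrophages (-0.13). Without the 5 highest cells they were Cxcl9 in mature dendritic cells (1.33), Cxcl10 in monocytes (0.28) and Ccl5 in Mmp12 macrophages (0.15), and without the deepest cells Cxcl10 in cDC1 (-1.03). The cause was not tested. Subtraction of free RNA was not run for Ccl5, since T and NK cells, the reference for the ligands, make it, nor where the level left was not above 0. Leaving out the highest cell, and leaving out myeloid cells with a T, NK or mature dendritic cell gene for Ccl5, were chosen after seeing the data. The dendritic and NK gates hold few cells.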
